A study of Mus musculus with 6 samples.

Results

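The genes examined here encode the constant regions of the immunoglobulin heavy and light chains, together with the J chain, in the inguinal white adipose tissue (IWAT) of mice. They are the 10 rows of the deposited table with the symbols *Ighm*, *Ighd*, *Igha*, *Ighg1*, *Ighg2b*, *Ighg2c*, *Ighg3*, *Igkc*, *Iglc1* and *Jchain*, chosen by name out of 55491 genes, of which 32664 had a count in any library. They comprise 7 heavy-chain genes, 2 light-chain genes and *Jchain*. IWAT RNA was sequenced in bulk from 4-week-old male mice on regular chow, with 3 wild-type (*Ebf2*+/+) and 3 heterozygous knock-in (*Ebf2* E165X/+) mice. All mice were C57BL/6J per the labels, and the *Ebf2* allele is a nonsense change introduced by CRISPR/Cas9 editing, present in every cell of the animal. *Ebf2*, the edited gene, had 4603, 4357 and 4611 counts in wild-type mice and 2635, 2863 and 2697 in E165X/+ mice (log2 fold change -0.81, SE 0.076, edgeR adjusted P = 0.0596), so the genotypes did not overlap in its level. The variant allele itself was not measured here. The libraries held 106820505 to 135039488 counts.

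An antibody is built from paired heavy and light chains, and the constant region of the heavy chain sets its class. A naive B cell makes IgM and IgD from a single long transcript by alternative splicing. After stimulation, class switch recombination joins the rearranged variable region to a downstream constant gene and deletes the DNA between. Plasma cells then secrete the product, and the J chain links the units of pentameric IgM and dimeric IgA through cysteines near the ends of their secreted tails. The inguinal fat pad of the mouse surrounds a lymph node, and white fat also holds scattered B cells of its own. In bulk tissue, fewer cells of a type and less RNA per cell cannot be told apart.

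On GRCm38, the heavy-chain genes lie on the minus strand of chromosome 12, in the transcriptional order *Ighm* (chr12:113418558-113422730), *Ighd* (chr12:113406604-113416324), *Ighg3* (chr12:113356224-113361232), *Ighg1* (chr12:113325240-113330523), *Ighg2b* (chr12:113302965-113307933), *Ighg2c* (chr12:113285325-113288932) and *Igha* (chr12:113254830-113260236). *Igkc*, the κ constant gene, is on chromosome 6 (chr6:70726435-70726966, plus strand). *Iglc1*, one of the λ constant genes, is on chromosome 16 (chr16:19061618-19062071, minus strand), and *Jchain* is on chromosome 5 (chr5:88519809-88527891, minus strand). The 4 IgG genes are close copies of each other, and the short hinge exon between the antigen-binding arms and the stem tells them apart by its length and its cysteine codons. The hinge exons (exon 2 of the secreted form, read from GRCm38) are shown 5′ to 3′ on the coding strand. In-frame cysteine codons, which supply cysteines for disulfide bonds between chains, are in capitals.
Ighg3 (chr12:113360529-113360576): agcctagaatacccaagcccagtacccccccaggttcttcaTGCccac
Ighg1 (chr12:113329844-113329882): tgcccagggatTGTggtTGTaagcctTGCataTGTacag
Ighg2b (chr12:113307261-113307326): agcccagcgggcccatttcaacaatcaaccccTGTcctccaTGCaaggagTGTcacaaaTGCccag
Ighg2c (chr12:113288263-113288325): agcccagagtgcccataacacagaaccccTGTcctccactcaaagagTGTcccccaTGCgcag

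The hinge exon of *Ighg3* holds 1 cysteine codon, those of *Ighg1* and *Ighg2b* hold 4 each, and that of *Ighg2c* holds 3. Over whole exons, *Ighg2b* and *Ighg2c* were 86.5% identical over their longest aligned stretch of 1118 exon bases. Of all 50-base words in the exons of *Ighg2c*, 5.49% also occur in *Ighg2b*, and of those of *Ighg2b*, 4.15% occur in another immunoglobulin constant gene. The corresponding share was 1.58% for *Ighg3* and 0.393% for *Ighg1*, and no word of *Ighm*, *Ighd*, *Igha*, *Igkc*, *Iglc1* or *Jchain* was shared. How the authors' counting divided reads from the shared stretches is uncertain. The tails that the J chain joins are shown next. The last 54 coding bases of the secreted forms of *Ighm* and *Igha* both carry a cysteine codon, in capitals, in the second-last position. The secreted form of *Ighg2c*, whose product is not joined by the J chain, has another codon there.
Ighm (chr12:113420870-113420923): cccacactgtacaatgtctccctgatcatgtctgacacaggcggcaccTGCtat
Igha (chr12:113258771-113258824): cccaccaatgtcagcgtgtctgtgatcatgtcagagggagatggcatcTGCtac
Ighg2c (chr12:113287392-113287445): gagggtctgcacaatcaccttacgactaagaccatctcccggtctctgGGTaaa

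The members together took 66254, 96507 and 91445 counts in the wild-type mice and 96222, 138852 and 157987 in the E165X/+ mice, which is 0.0530%, 0.0903% and 0.0738% of all counts against 0.0868%, 0.118% and 0.117%. Wild-type mouse 2 lay above E165X/+ mouse 1, so the genotypes overlapped. In CPM, the count relative to a library size scaled by edgeR's TMM factors, the sum was 735 ± 182 in wild-type and 1059 ± 206 in E165X/+ mice (mean ± SD, n = 3 each), a ratio of 1.44. IgM and IgD, the classes of unswitched B cells, made up most of this sum in every library.

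Every one of the 10 genes had a fitted log2 fold change above 0 in E165X/+ mice, and their median was 0.52. Among genes with 10 or more counts in each library, as all members had, 56.1% were above 0 and the median was 0.0255. The median over all genes tested was 0.014. None of the members passed the call of an adjusted P under 0.05 with a fold change above 1.5, in edgeR, DESeq2 or limma-voom, and 0.00918% of all genes tested passed it in edgeR. *Ighg2c* and *Jchain* were the members with an unadjusted P under 0.05 in edgeR's quasi-likelihood test, a mark that 4.77% of all genes tested reached, while DESeq2 and limma-voom each gave 3 members (4.85% and 5.38% of all genes). In all 10 genes the highest wild-type mouse lay above the lowest E165X/+ mouse, so none was higher without overlap, against 6.66% of the genes with 10 or more counts in each library. The shared direction of the members was not tested.

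**Figure D1:**
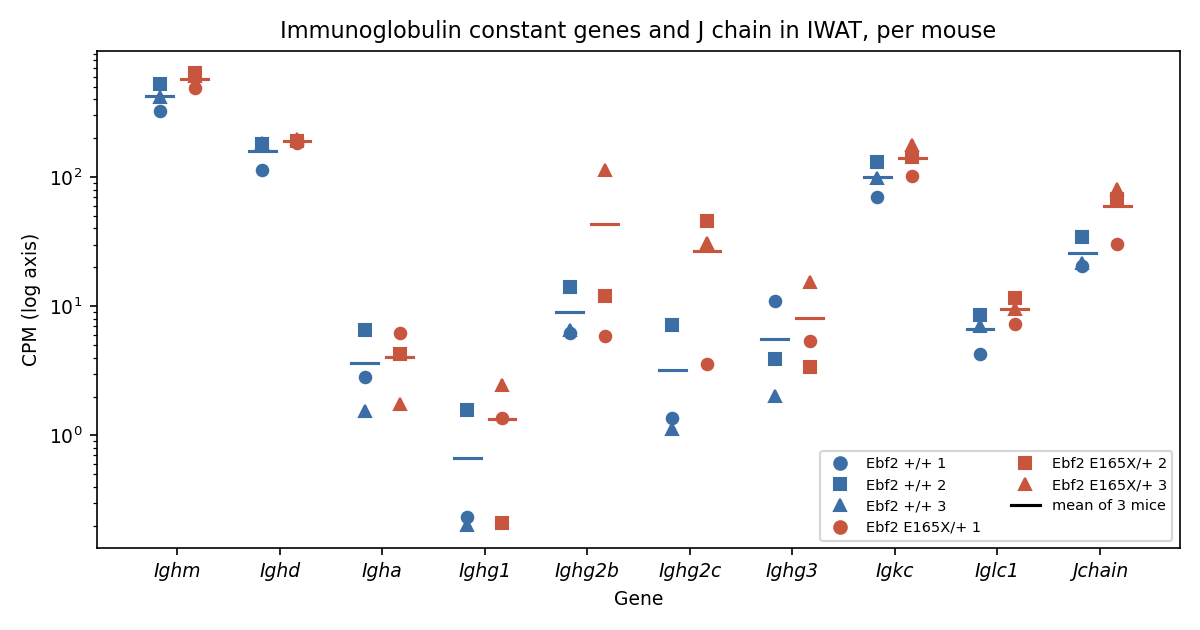
CPM (log axis) of each member in each mouse, wild-type in blue and *Ebf2* E165X/+ in red, with a marker shape per mouse number and a line at the mean of 3 mice. The points of *Ighm* and *Ighd* lie close together, the *Ighg2b* and *Ighg2c* points of E165X/+ mice are spread widely, and the genotypes overlap in all 10 genes.

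*Ighm* encodes the μ chain of IgM, the class that every B cell makes first. It had 38694, 55554 and 51604 counts in wild-type mice and 56296, 79292 and 77573 in E165X/+ mice. Wild-type mouse 1 was the lowest, and wild-type mouse 2 exceeded E165X/+ mouse 1 in CPM (527 against 487). The mean was 422 ± 103 CPM in wild-type and 576 ± 78.6 CPM in E165X/+ mice (n = 3), with a log2 fold change of 0.45 (SE 0.20, edgeR adjusted P = 0.783). *Ighd*, the δ chain of IgD, which mature naive B cells carry beside IgM, had 13603, 19110 and 22661 counts in wild-type and 21090, 23689 and 25216 counts in E165X/+ mice. Its difference was smaller, with a log2 fold change of 0.25 (SE 0.18, edgeR adjusted P = 0.783). Without wild-type mouse 1, the lowest library of both genes, the log2 fold change was 0.27 for *Ighm* and 0.04 for *Ighd*. These 2 genes were also the steadiest members, with the highest library 1.97 times the lowest for *Ighm* and 1.74 times for *Ighd*.

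The 4 IgG genes were the most variable members, with the highest library at least 7.71 times the lowest. *Ighg2c*, which encodes the IgG2c of C57BL/6 mice, had 163, 760 and 138 counts in wild-type mice and 415, 5711 and 3919 in E165X/+ mice. E165X/+ mice 2 and 3 were above every wild-type mouse, while E165X/+ mouse 1 lay below wild-type mouse 2. Its level was 3.23 ± 3.45 CPM in wild-type and 26.6 ± 21.3 CPM in E165X/+ mice (n = 3), a log2 fold change of 3.05 (SE 1.03, edgeR adjusted P = 0.783). The fold change lay between 2.41 and 4.41 when any single mouse was left out. Over the 6 libraries the highest was 41.1 times the lowest, the widest range of any member.

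*Ighg2b*, which encodes IgG2b, had 743, 1483 and 817 counts in wild-type mice and 679, 1504 and 14411 in E165X/+ mice. A single library, E165X/+ mouse 3, stood far above the other 5, which ran from 5.87 to 14.1 CPM against its 112.5 CPM. The log2 fold change of 2.28 (SE 1.02, edgeR adjusted P = 0.783) became 0.0017 without that mouse. *Ighg3*, which encodes the IgG3 often made against carbohydrate antigens, had 1311, 408 and 249 counts in wild-type and 620, 426 and 1983 counts in E165X/+ mice. E165X/+ mouse 3 and wild-type mouse 1 were the highest, and the log2 fold change of 0.53 (SE 0.72, edgeR adjusted P = 0.846) turned to -0.35 without E165X/+ mouse 3. *Ighg1* (IgG1) was the least abundant member, at 0.667 ± 0.778 CPM in wild-type and 1.34 ± 1.12 CPM in E165X/+ mice (log2 fold change 1.01, edgeR adjusted P = 0.783), with 25 to 314 counts per library, and its log2 fold change was 0.23 without E165X/+ mouse 3, 1.52 without E165X/+ mouse 2 and 2.61 without wild-type mouse 2.

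Summed over the 4 genes, IgG stood at 18.7, 26.7 and 9.92 CPM in wild-type mice and at 16.2, 61.4 and 161.0 CPM in E165X/+ mice, a ratio of means of 4.31, which was 2.10 without E165X/+ mouse 3. E165X/+ mice 2 and 3 lay above all wild-type mice, and E165X/+ mouse 1 lay below wild-type mice 1 and 2. With the 4 genes fitted as a single row, which removes the division of reads among the copies, the log2 fold change was 2.11 (SE 0.75, edgeR adjusted P = 0.783). The subclass that led differed from mouse to mouse. *Ighg3* held 58.4% of IgG counts in wild-type mouse 1. *Ighg2b* led in wild-type mice 2 and 3 (52.7% and 66.5%), in E165X/+ mouse 1 (36.3%) and in E165X/+ mouse 3 (69.9%). *Ighg2c* led in E165X/+ mouse 2 alone, with 74.5%. The leading subclass thus differed between the 2 E165X/+ mice with the most IgG. In CPM, *Ighg2c* was above the wild-type range in both. As a share of IgG counts, it was 19.0% in E165X/+ mouse 3, within the wild-type range of 7.26% to 27.0%.

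**Figure D2:**
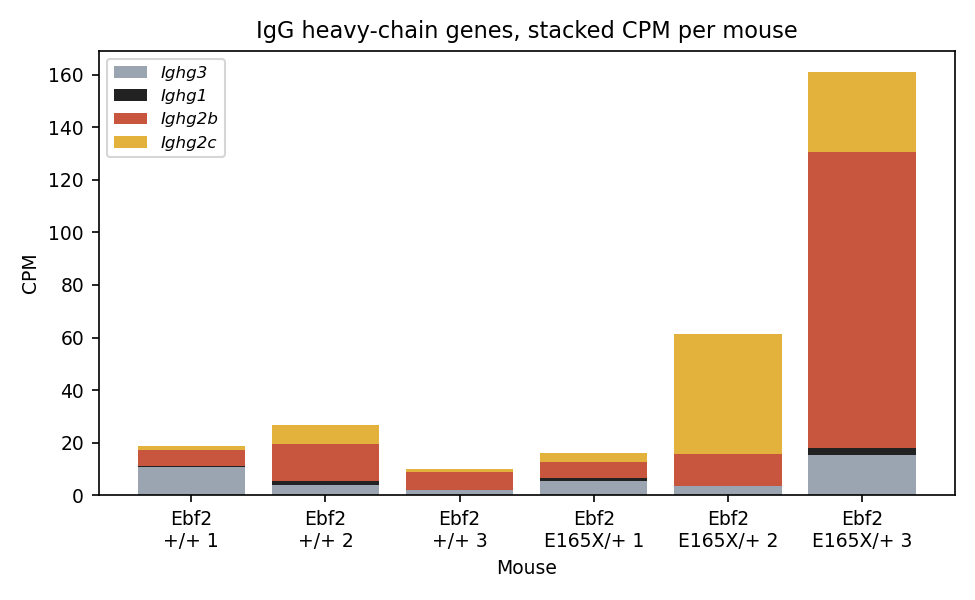
CPM of the 4 IgG heavy-chain genes stacked for each of the 6 mice, on a linear axis from 0. E165X/+ mouse 3 reaches 161.0 CPM and is mostly *Ighg2b*, E165X/+ mouse 2 reaches 61.4 CPM and is mostly *Ighg2c*, and E165X/+ mouse 1 at 16.2 CPM lies within the wild-type range of 9.92 to 26.7 CPM.

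*Igha*, the α chain of IgA, the class of mucosal surfaces, had 340, 689 and 193 counts in wild-type and 720, 531 and 225 counts in E165X/+ mice. The ranges of the genotypes nearly coincided, with 3.64 ± 2.59 against 4.08 ± 2.24 CPM (n = 3) and a log2 fold change of 0.16 (SE 0.59, edgeR adjusted P = 0.954), and its sign changed when wild-type mouse 1 (-0.01), wild-type mouse 3 (-0.22) or E165X/+ mouse 1 (-0.28) was left out. *Ighe*, the remaining heavy-chain class and no member of the set, had 9, 4 and 1 counts in wild-type and 9, 6 and 1 counts in E165X/+ mice.

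Light chains pair with every heavy-chain class. *Igkc* had 8375, 13793 and 12187 counts in wild-type and 11877, 17783 and 22698 counts in E165X/+ mice. E165X/+ mice 2 and 3 were the highest, and the mean was 99.6 ± 30.6 CPM in wild-type and 141 ± 37.3 CPM in E165X/+ mice (log2 fold change 0.50, SE 0.26, edgeR adjusted P = 0.783). *Iglc1* had 517, 908 and 869 counts in wild-type and 840, 1451 and 1211 counts in E165X/+ mice, with a similar log2 fold change of 0.51 (SE 0.28, edgeR adjusted P = 0.783). Without wild-type mouse 1 the log2 fold change was 0.28 for *Igkc* and 0.26 for *Iglc1*. The other λ constant genes were not members. *Iglc2* had 2449, 3303 and 3704 counts in wild-type and 3624, 4824 and 5194 in E165X/+ mice (log2 fold change 0.44, SE 0.17, edgeR adjusted P = 0.783), *Iglc3*, of which 10.7% of 50-base words occur in *Iglc2*, had a log2 fold change of 0.23 (SE 0.18), and *Iglc4* had at most 6 counts in a library. In all, 3 of these 4 other constant genes had a fold change above 0, and none was called. *Igkc* made up 93.8% ± 0.422 of the counts of *Igkc* and *Iglc1* in wild-type and 93.6% ± 1.25 in E165X/+ mice (two-sided exact permutation test, P = 0.9). This ratio leaves out *Iglc2* and *Iglc3*, which both had more counts than *Iglc1* in every library. It is therefore not the balance of all κ and λ counts.

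*Jchain* encodes the J chain, which is made by antibody-secreting cells. It had 2480, 3637 and 2702 counts in wild-type mice and 3528, 8439 and 10437 counts in E165X/+ mice. E165X/+ mice 2 and 3, at 67.6 and 81.5 CPM, stood above the wild-type range of 20.6 to 34.5 CPM, and E165X/+ mouse 1, at 30.5 CPM, stood within it. The mean was 25.7 ± 7.69 CPM in wild-type and 59.8 ± 26.4 CPM in E165X/+ mice (n = 3), a log2 fold change of 1.22 (SE 0.36, edgeR adjusted P = 0.783; DESeq2 adjusted P = 0.236). It lay between 0.94 and 1.54 when any mouse was left out. Of the members, *Jchain* had the smallest unadjusted P.

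Levels of different genes were compared per kilobase of annotated exon. In wild-type mice, *Ighm* was the highest at 224 CPM per kilobase, followed by *Igkc* (187), *Ighd* (83.8), *Iglc1* (14.6), *Jchain* (10.2), *Ighg2b* (3.34), *Ighg2c* (2.43), *Ighg3* (2.23), *Igha* (1.36) and *Ighg1* (0.257). In E165X/+ mice, the means of *Ighm* (305) and *Igkc* (265) again led that of *Ighd* (99.8), but *Igkc* exceeded *Ighm* in E165X/+ mouse 3 (333 against 321). By their means, *Jchain* (23.8) came above *Iglc1* (20.8), and *Ighg2c* (20.1) came above *Ighg2b* (16.2), but neither order held in all 3 mice. In each wild-type mouse *Ighm* exceeded *Igkc* and *Iglc1* exceeded *Jchain*, whereas the order of *Ighg2b*, *Ighg2c*, *Ighg3* and *Igha* differed between mice. If the libraries were made from 3′ ends only, as the paper's methods state, length is not the right divisor and the order holds for counts per kilobase only.

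Shares of the summed member counts do not depend on library size. *Ighm* took 58.4%, 57.6% and 56.4% in wild-type mice and 58.5%, 57.1% and 49.1% in E165X/+ mice, so that 5 of the 6 libraries lay between 56.4% and 58.5% and E165X/+ mouse 3 lay below them. *Ighd* took 20.5%, 19.8% and 24.8% in wild-type and 21.9%, 17.1% and 16.0% in E165X/+ mice. *Igkc* was even across all mice, from 12.3% to 14.4%. *Jchain* took 3.74%, 3.77% and 2.95% in wild-type mice and 3.67%, 6.08% and 6.61% in E165X/+ mice. *Ighg2c* took 0.246%, 0.788% and 0.151% in wild-type and 0.431%, 4.11% and 2.48% in E165X/+ mice, and *Ighg2b* took 1.12%, 1.54% and 0.893% against 0.706%, 1.08% and 9.12%. The widest 95% Wilson interval of any share was 0.751 percentage points, which covers counting error only and not the spread between mice. Exact permutation tests of the difference in means, two-sided, gave P = 0.2 for *Ighg2c*, 0.3 for *Jchain* and *Ighd*, and at least 0.7 for the other 7 members, where 3 mice against 3 cannot give a P below 0.1.

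Ratios between members described the same mice. Switched classes (*Igha* and the 4 IgG genes) made up 4.71%, 4.48% and 1.88% of heavy-chain counts in wild-type mice and 3.24%, 7.37% and 16.9% in E165X/+ mice (exact permutation test, P = 0.3). The difference in means of 5.47 percentage points became 1.62 without E165X/+ mouse 3. *Ighm* and *Ighd*, the genes of the unswitched classes, made up most heavy-chain counts in all 6 mice. Counts per gene do not show whether the cells of origin had switched. *Jchain* stood at 6.35, 6.47 and 5.22 counts per 100 counts of *Ighm* and *Igha*, its binding partners, in wild-type mice and at 6.19, 10.6 and 13.4 in E165X/+ mice (exact permutation test, P = 0.3). *Ighd* per 100 *Ighm* counts was 35.2, 34.4 and 43.9 in wild-type mice and 37.5, 29.9 and 32.5 in E165X/+ mice (exact permutation test, P = 0.4). *Igkc* per 100 heavy-chain counts was 16.3 ± 1.21 in wild-type and 16.4 ± 1.79 in E165X/+ mice (exact permutation test, P = 1). Of the 17 shares and ratios tested in this family, none had a P below 0.2. In the switched share and in *Jchain*, E165X/+ mice 2 and 3 were above every wild-type mouse and E165X/+ mouse 1 was within the wild-type range.

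General B cell genes were compared next. The 10 B cell identity genes, which cover the surface protein *Ms4a1* (CD20), the signalling chains *Cd79a* and *Cd79b* of the B cell receptor, and the transcription factor *Pax5*, all had log2 fold changes above 0, with a median of 0.29, which was 0.10 without wild-type mouse 1. None was called, 1 had an unadjusted P under 0.05 (4.77% of all genes tested), and 4 were higher in E165X/+ mice without overlap. Beside these and later lists, the background is the share over all genes, here 6.66% of the genes with 10 or more counts in each library. Their summed level was 462, 721 and 725 CPM in wild-type and 739, 844 and 777 CPM in E165X/+ mice, which did not overlap, and wild-type mouse 1 was lowest as it was for *Ighm*. The most abundant of them was *Cd22*, an inhibitory receptor, at a log2 fold change of 0.27 (SE 0.18). *Ms4a1* had 7993, 11414 and 13814 counts in wild-type and 13633, 15778 and 15744 counts in E165X/+ mice (log2 fold change 0.36, SE 0.18, edgeR adjusted P = 0.783).

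The members were then set against these B cell genes. Per 100 counts of the 10 genes, *Ighd* stood at 24.5, 25.2 and 25.2 counts in wild-type mice and at 24.7, 22.5 and 25.3 in E165X/+ mice, the most even of the quantities compared. *Ighm* stood at 69.7, 73.1 and 57.5 in wild-type and 65.8, 75.2 and 77.9 in E165X/+ mice. *Jchain* stood at 4.46, 4.79 and 3.01 in wild-type and 4.12, 8.01 and 10.5 in E165X/+ mice, and the 4 IgG genes together at 4.04, 3.71 and 1.37 against 2.19, 7.28 and 20.7. On this scale, which was added after the data had been seen, E165X/+ mice 2 and 3 again exceeded all wild-type mice for *Jchain* and IgG and E165X/+ mouse 1 did not. An exact permutation test gave P = 0.3 for *Jchain* and for IgG, and P = 0.7 for *Ighd*.

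Genes of the germinal centre, the follicle structure in which B cells switch class and mutate their receptors, differed in their pattern over the mice. *Bcl6*, the master transcription factor of germinal centre B cells and the most abundant gene of the list, had 4960, 4845 and 4714 counts in wild-type and 4100, 7074 and 10723 in E165X/+ mice (log2 fold change 0.49, SE 0.27, edgeR adjusted P = 0.783). Its high libraries were E165X/+ mice 2 and 3. *Bcl6* is also expressed by other cells of fat and muscle. *Rgs13*, a G protein regulator of germinal centre B cells that was chosen after its values were seen, had 53, 35 and 36 counts in wild-type and 59, 85 and 143 in E165X/+ mice. *Ung*, a uracil glycosylase of DNA repair, and *S1pr2*, a receptor that holds cells in the follicle, had log2 fold changes of -0.09 (SE 0.18) and 0.18 (SE 0.11). Of the 6 genes of this list, 5 had a fold change above 0, and the median was 0.28 (0.17 without E165X/+ mouse 3). Among the 6, 1 (*Rgs13*) had an unadjusted P under 0.05 (background 4.77%) and did not overlap (background 6.66%), and none was called.

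Genes of plasma cells did not move as a block. Of 12, 8 had a log2 fold change above 0, and none was called. The median of the 12 was 0.13 (0.071 without wild-type mouse 2 and 0.203 without wild-type mouse 1). An unadjusted P under 0.05 was reached by 2 genes that were higher and 1 that was lower in E165X/+ mice, and 1 gene in each direction did not overlap, beside 4.77% of all genes tested for the first mark and, among genes with 10 or more counts in each library, 6.66% higher and 6.78% lower without overlap. *Mzb1*, a chaperone of immunoglobulin assembly, had 827, 974 and 1249 counts in wild-type and 1079, 1578 and 2059 in E165X/+ mice (log2 fold change 0.54, SE 0.22, edgeR adjusted P = 0.783), highest in E165X/+ mice 2 and 3. *Tnfrsf17*, the survival receptor BCMA of plasma cells, had 48, 42 and 74 counts in wild-type and 60, 96 and 94 in E165X/+ mice. *Derl3*, of the degradation pathway of the endoplasmic reticulum, had 80, 145 and 148 against 138, 151 and 244 counts. *Prdm1*, the transcription factor Blimp-1 that drives plasma cell differentiation and is also made by other cells, was lower in E165X/+ mice without overlap, with 852, 794 and 890 against 777, 647 and 615 counts (log2 fold change -0.39, SE 0.16, edgeR adjusted P = 0.783). *Pou2af1*, a coactivator of immunoglobulin transcription in B cells that was named after its values were seen, was higher without overlap, with 3776, 5354 and 5631 against 6421, 7283 and 7908 counts (log2 fold change 0.46, SE 0.16, edgeR adjusted P = 0.783). *Xbp1*, the most abundant gene of the list and a secretory factor that many cells use, had a log2 fold change of -0.05 (SE 0.17).

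**Figure D3:**
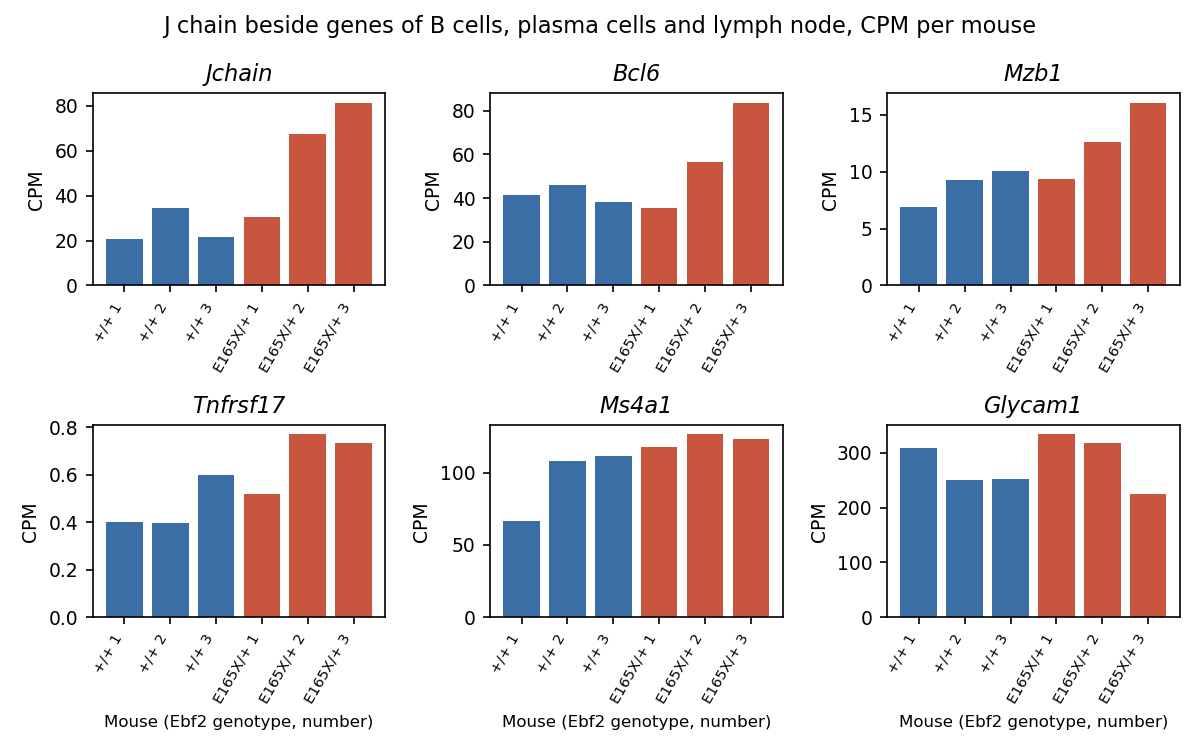
CPM per mouse (bars, linear axes from 0) of *Jchain*, *Bcl6*, *Mzb1*, *Tnfrsf17*, *Ms4a1* and *Glycam1*, wild-type in blue and E165X/+ in red. *Jchain*, *Bcl6*, *Mzb1* and *Tnfrsf17* are highest in E165X/+ mice 2 and 3, whereas *Prdm1* and *Xbp1* of the plasma cell list, not drawn, were lowest in those mice. *Glycam1* is lowest in E165X/+ mouse 3, where 4 other lymph node genes were above every wild-type mouse.

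Markers of lymph node tissue were present in all 6 libraries. *Glycam1*, a mucin of the high endothelial venules of lymph nodes and the most abundant gene of its list, had 37003, 26435 and 31346 counts in wild-type and 38590, 39809 and 28731 in E165X/+ mice. In CPM it was lowest in E165X/+ mouse 3, whereas *Madcam1*, *Chst4*, *Ccl21a* and *Cr2* of the same list were above every wild-type mouse in that mouse. *Madcam1*, *Chst4* and *Ccl19* had log2 fold changes of 0.28 (SE 0.16), 0.22 (SE 0.12) and 0.05 (SE 0.22), and the 7 genes of the list, which includes the follicular chemokine *Cxcl13*, were all above 0 with a median of 0.22. Of them, 2 (*Chst4* and *Cr2*) were higher in E165X/+ mice without overlap (background 6.66%). Their summed level was 552, 595 and 582 CPM in wild-type and 718, 692 and 593 CPM in E165X/+ mice. T cell genes were similar, with 9 of 10 above 0, a median of 0.21 (0.08 without wild-type mouse 1), 2 genes higher without overlap (background 6.66%) and sums of 324, 422 and 431 against 434, 477 and 422 CPM, and *Lck*, a kinase of the T cell receptor, was the most abundant. *Cd3e*, *Cd3d*, *Cd3g* and *Cd4* had log2 fold changes between 0.18 and 0.24. The exception was *Trac*, the constant gene of the T cell receptor α chain, named after its values were seen, with 3533, 4365 and 4971 counts in wild-type and 3505, 3635 and 3893 in E165X/+ mice (log2 fold change -0.31, SE 0.13, edgeR adjusted P = 0.783), the single T cell gene with an unadjusted P under 0.05. No gene of these lists was called. The part of lymph node tissue in the levels of the members was not tested.

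**Figure D4:**
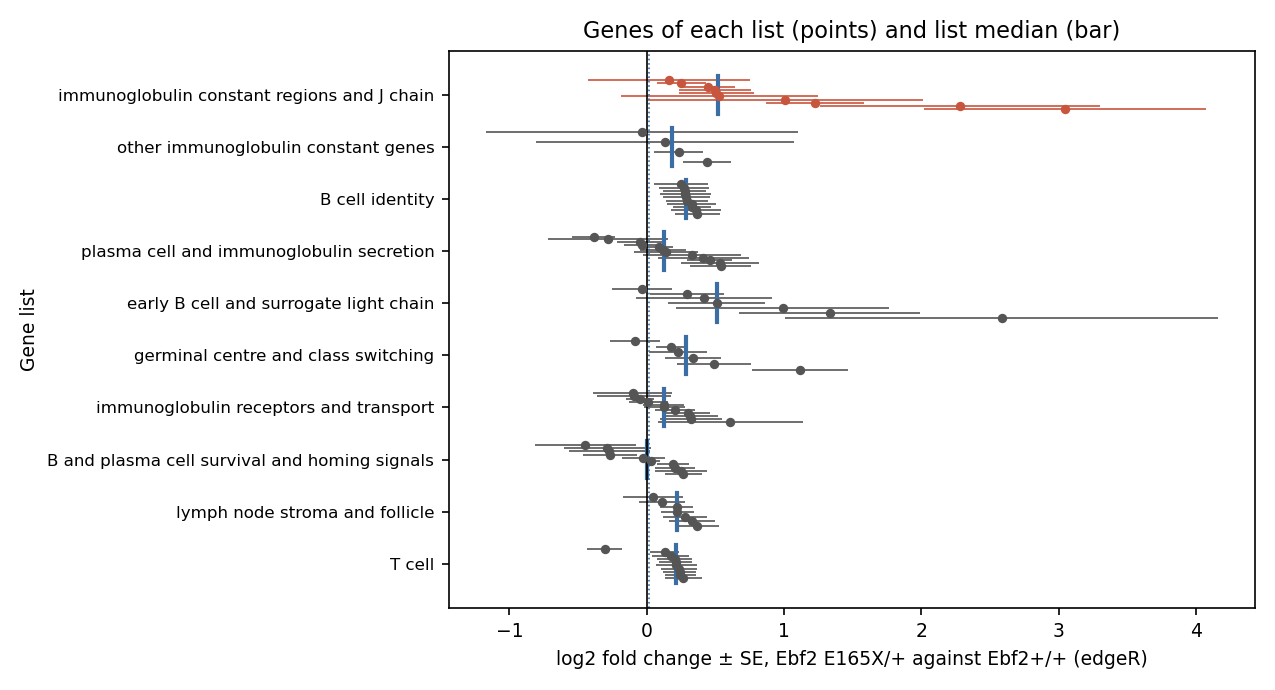
Log2 fold change (point) with its SE (line) for each gene of 10 lists, *Ebf2* E165X/+ against *Ebf2*+/+ from edgeR, with the median of each list as a blue bar and that of all genes as a dotted line. The medians of B cell, lymph node and T cell genes are 0.29, 0.22 and 0.21, a single T cell gene (*Trac*) lies below 0 at -0.31, and the members run from 0.16 to 3.05.

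Other tissue in the dissected pads differed between libraries too. The 8 skeletal muscle genes (*Acta1*, *Ckm*, *Mylpf*, *Tnnt3* and others, *Myh4* the most abundant) summed to 1675, 6830 and 2553 CPM in wild-type and 2812, 666 and 38748 CPM in E165X/+ mice. E165X/+ mouse 3 held the most muscle transcripts and the most summed IgG (161.0 CPM). E165X/+ mouse 2 held the fewest muscle transcripts, the next highest summed IgG (61.4 CPM) and the most *Ighg2c*. The 7 white adipocyte genes, among them *Adipoq*, *Plin1*, *Lep* and *Cfd* and led by *Lpl*, summed to 21380, 22278 and 19106 CPM in wild-type and 20269, 19126 and 13061 CPM in E165X/+ mice. All 7 log2 fold changes were below 0, with a median of -0.28 (-0.146 without E165X/+ mouse 3). Keratin *Krt5* had 6043, 5 and 2753 counts in wild-type and 1964, 28 and 1 in E165X/+ mice, and the skin and gland list that it leads (with *Krt14*, *Krt8* and *Krt18*) summed to 69.5, 1.93 and 34.4 against 27.7, 1.55 and 5.82 CPM. The 5 erythroid genes, led by *Hbb-bs* with *Hbb-bt*, *Hba-a1* and *Hba-a2*, summed to 3074, 2135 and 3315 CPM in wild-type and 4550, 2558 and 2002 CPM in E165X/+ mice. Without E165X/+ mouse 3, the log2 fold change was 0.94 for *Jchain*, 2.94 for *Ighg2c*, 0.0017 for *Ighg2b*, -0.35 for *Ighg3* and 0.23 for *Ighg1*. The part of these tissues in the levels of the members was not tested.

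The variable segments joined to these constant regions gave a further view of the same transcripts. In the heavy chain, the leading segment took 5.17% to 7.26% of the counts of 185 segments in wild-type mice. In E165X/+ mice it was *Ighv5-4* with 6.31% in mouse 1, *Ighv8-8* with 7.86% in mouse 2 and *Ighv4-1* with 9.78% in mouse 3. In the κ chain the leading segments were *Igkv1-110* with 17.4% in wild-type mouse 1 and *Igkv10-96* with 15.9% in E165X/+ mouse 2, and in the other 4 mice the leader took 7.81% to 9.50%. Of the 3 λ segments, *Iglv1* led in every mouse, with 65.1% to 76.6% of λ counts. In the heavy and κ chains no single segment made up most counts in any mouse. Near-identical segments can share reads, so the division among them is uncertain.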

How the data were processed

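IWAT RNA libraries of 3 *Ebf2*+/+ and 3 *Ebf2* E165X/+ mice were analysed from the table of expected counts per gene that the authors deposited, without scaling for library size. All 332946 values were whole, so rounding changed none. The submitters' processing notes name cutadapt 4.8, FastQC 0.11.8, STAR 2.7.8a, RSEM 1.3.3, MultiQC 1.20 and GRCm38, the labels name a kit from NEB, and the paper's methods name 3′ mRNA sequencing and Ensembl 109. Whether counting used strand is not given in the sources used here, so reads of *Iglc1* and of the antisense gene over it may be mixed. A lincRNA on the same strand overlaps *Igkc*.

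Genes with a count in any library were compared in edgeR 4.0.16 (R 4.3.3, TMM, quasi-likelihood test, genotype as the only term, Benjamini-Hochberg adjustment over 32664 genes) and called at an adjusted P under 0.05 and a fold change above 1.5. CPM uses TMM-scaled library sizes, and an SE is the fold change over the square root of the test's F statistic. Shares and ratios of counts were tested by exact two-sided permutation of the genotype means (scipy 1.17.1). Exon lengths, coordinates and sequences are from GENCODE M21 on GRCm38, which holds 55141 of the 55491 identifiers, and alignments are from blastn 2.17.0. *Ccl19* and *Ccl21a* each have 2 rows, of which the one with more counts was used. *Ighg2a* matched no row used here, and the B cell and germinal centre lists each leave out a gene that is not reported here.

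The members, the lists and the tests were chosen with earlier results of these data known. Named are all members and, from each other list, its first 4 genes (the genes left out counted among them), any called gene, its most abundant gene and any at 0 in all libraries. Genes outside that rule are *Pax5*, *Rgs13*, *Pou2af1*, *Trac*, *Ccl21a*, *Cr2* and *Cxcl13*, chosen after their values were seen. Alternatives were DESeq2 1.42.0, limma-voom (limma 3.58.1), DESeq2's size factors, filterByExpr, a minimum of 10 counts per gene and library, a replicate block, each mouse left out in turn, the IgG genes summed, immunoglobulin genes left out of library sizes, shares on a log2 scale, per kilobase or of heavy or light chains alone, and sums without *Jchain*. Counts per B cell identity gene were added after the data were seen. The labels do not name litters or batches.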

Additional observations from a re-analysis of the deposited data

How the results depend on the processing

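No member was called under any alternative. The 3 genes called by edgeR in the whole table became 98 with DESeq2 and 2 with a replicate block, and between 1 (without wild-type mouse 2) and 11 (without E165X/+ mouse 3) with a mouse left out. Same-numbered mice did not deviate together (r of 0.153, -0.278 and -0.162), and they were not treated as pairs. From 3 mice per genotype, these correlations cannot exclude shared litters or batches, which the labels do not name. The replicate block gave 5 in place of 2 members an unadjusted P under 0.05, beside 3.92% in place of 4.77% of all genes. With a mouse left out, this count ran from 1 to 6 members. It was 1 without wild-type mouse 1 or 3 (beside 3.27% and 5.4% of all genes) and 6 without wild-type mouse 2 (beside 3.98%). Of 136 alternative log2 fold changes of the members, 4 changed sign, and leaving out a mouse gave -0.28 to 0.88 for *Igha* and -0.35 to 1.44 for *Ighg3*. For *Ighg2b* it gave 0.0017 to 2.80, the lowest without E165X/+ mouse 3.

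Differences in share (E165X/+ minus wild-type, percentage points) changed sign when a mouse was left out for *Ighm* (-4.36 to 0.34), *Igha* (-0.217 to 0.0860), *Ighg2b* (-0.289 to 3.92), *Ighg3* (-0.465 to 0.388), *Igkc* (-0.845 to 0.189) and *Iglc1* (-0.0707 to 0.0685). So did the IgA share of heavy chain (-0.256 to 0.104) and the share of *Igkc* in the counts of *Igkc* and *Iglc1* (-0.859 to 0.380). *Igkc* per 100 heavy-chain counts ran from -0.913 to 0.841. On a log2 scale the difference was 0.041 for *Ighg3*, and with the sum taken without *Jchain* it was 0.0384 for *Igkc*. The differences of *Ighd*, *Ighg2c* and *Jchain* kept their sign.

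List medians changed sign with a mouse left out for immunoglobulin receptors (-0.024 to 0.217), survival and homing signals (-0.021 to 0.055), skeletal muscle (-1.09 to 2.76), skin and gland (-0.66 to 0.38) and erythroid genes (-0.29 to 0.35). With at least 10 counts required, the medians were -0.016 for survival and homing signals and 0.49 for skin and gland. The cause of these changes was not tested. For the shares of the members, the Wilson intervals cover counting error only and not the spread between mice.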

Other observations

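Receptors and signals that act on immunoglobulins or on the cells that make them were also measured. Of 11 genes for immunoglobulin receptors and transport, 8 had a log2 fold change above 0 with a median of 0.13, and none was called. *Fcgrt*, the neonatal Fc receptor that recycles IgG and the most abundant of them, had 29637, 22395 and 29328 counts in wild-type and 28439, 26827 and 27085 in E165X/+ mice (log2 fold change -0.05, SE 0.10). *Fcmr*, the IgM receptor of B cells, had a log2 fold change of 0.33 (SE 0.23) and *Fcamr*, a receptor for IgM and IgA, 0.31 (SE 0.20). *Pigr*, which carries polymeric IgA and IgM across epithelia, had 49 to 72 counts per library.

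Of 10 genes for survival and homing signals of B and plasma cells, 5 had a log2 fold change above 0, with a median of 0.0036. The cytokines *Tnfsf13* (APRIL) and *Tnfsf13b* (BAFF) had log2 fold changes of -0.02 (SE 0.16) and 0.21 (SE 0.14), and their receptors *Tnfrsf13b* and *Tnfrsf13c* had 0.27 (SE 0.13) and 0.25 (SE 0.19). *Cxcl12*, a chemokine that retains plasma cells in their niche and the most abundant gene of the list, had 38568, 32431 and 41058 counts in wild-type and 46844, 46249 and 40972 in E165X/+ mice. Of 7 genes of early B cells, 6 were above 0 with a median of 0.51. That median was 0.288 without wild-type mouse 1, 0.996 without wild-type mouse 3 and 0.335 with at least 10 counts required. Their counts were low, with 16 to 45 for the surrogate light chain *Vpreb1*, 0 to 6 for *Vpreb2* and 2 to 62 for *Igll1*, and *Vpreb3*, the most abundant, had 188 to 411. None of these genes was called.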
